A study of Mus musculus with 20 samples.

Results

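The 36 genes described here are a chosen list of genes of the type I interferon response, measured in whole lymph nodes: Isg15, Usp18, Herc6, Ifit1, Ifit2, Ifit3, Ifit3b, Oas1a, Oas2, Oas3, Oasl1, Oasl2, Mx1, Mx2, Irf7, Irf9, Stat2, Rsad2, Cmpk2, Bst2, Ifih1, Dhx58, Zbp1, Ifi204, Ifi203, Parp9, Dtx3l, Parp14, Sp100, Trim30a, Xaf1, Cxcl10, Ifi44, Ifi27, Ifi35 and Rtp4. They were found by symbol in the gene count table, by a rule that uses no measured value. The list itself was chosen with earlier results of these data known. All 36 were found among its 56258 genes, and all 36 passed the filter on low counts that left 29411 genes for testing. The lowest estimated count of any of them in a library was 1717, so counting error was small beside the spread between libraries.

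RNA was measured by polyA sequencing of whole nodes from Rag1-/- mice (strain B6.129S7-Rag1tm1Mom/J) at 9 weeks of age, with 20 libraries in 5 groups of 4. Duodenal, jejunal, ileal and ceco-colonic nodes drain successive stretches of the gut, and the inguinal node, which drains skin, served as the reference outside the gut. Every group carried the same mutation, which stops T and B cells from maturing, and no treatment is named. No wild-type library was analysed here, so nothing below compares genotypes. Separate animals are not named for the 4 libraries of a group. The p-values therefore measure only the spread between these libraries, which may be partly technical.

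Type I interferons (interferon beta and the interferon alpha family) bind a receptor of the subunits Ifnar1 and Ifnar2 and, through the kinases Jak1 and Tyk2, lead to phosphorylation of Stat2. Stat2 and Irf9 act in the factor ISGF3, which binds the interferon-stimulated response element (ISRE) and switches on genes that degrade foreign RNA, block its translation, trap budding particles and sense nucleic acids. Interferon lambda acts through another receptor on mainly epithelial cells and some leukocytes but switches on much the same genes. In the gut, microbes keep a low interferon tone in tissue that is not infected.

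Because these genes share a control element in textbook accounts, their promoter windows were searched for its letters, and the matches of 7 members are printed. RefSeq promoter windows of 300 bases on build GRCm38.p6 (250 before the start, 50 after it) were at hand for 25 of the 36 genes. The letters TTTCNNTTTC, or GAAANNGAAA on the other strand, were in a window of 13 of these 25 genes (52%) and of 3.99% of the 27025 genes in the table. The matches shown are those nearest the start, with up to 20 bases on either side, 5′ to 3′ on the gene's own strand, capitals marking every base of a match.
Isg15: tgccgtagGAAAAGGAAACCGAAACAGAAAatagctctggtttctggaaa
Ifit1: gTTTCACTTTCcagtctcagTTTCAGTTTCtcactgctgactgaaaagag
Ifit3: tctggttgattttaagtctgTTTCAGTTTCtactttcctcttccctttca
Ifit3b: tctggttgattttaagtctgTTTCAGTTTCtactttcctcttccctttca
Rsad2: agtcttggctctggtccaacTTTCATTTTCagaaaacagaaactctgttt
Cxcl10: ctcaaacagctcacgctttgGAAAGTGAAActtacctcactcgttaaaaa
Bst2: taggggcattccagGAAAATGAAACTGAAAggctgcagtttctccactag

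On GRCm38.p6 these stretches lie at chr4:156200855-156200904 (Isg15, minus strand), chr19:34640784-34640833 (Ifit1, plus), chr19:34583387-34583436 (Ifit3, plus), chr19:34607783-34607832 (Ifit3b, plus), chr12:26456543-26456592 (Rsad2, minus), chr5:92349073-92349122 (Cxcl10, minus) and chr8:71537567-71537616 (Bst2, minus). Isg15 held 3 matches in its window, Ifit1, Ifit3, Ifit3b and Bst2 held 2 each, and Rsad2 and Cxcl10 held 1. The stretches of Ifit3 and Ifit3b differed at 0 bases, and reads of these near-identical neighbours are shared between them by estimate, so their levels are not independent. The letters TTCNNNGAA, which read the same on both strands and resemble the gamma interferon activation site, were in windows of 4 of 25 genes (16%) against 9.55% of all genes, and in Bst2 alone of the 25 they overlapped the ISRE letters. A match is a string of letters and not a measured binding site. Of the genes described below, Isg15, Rsad2 and Cxcl10 were among the most changed between nodes and Bst2 among the least, while Oasl1, the most changed of all, had no match in its window.

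Total estimated counts per library ran from 148231955 to 304588639. Levels are given as CPM, counts scaled to library size, after TMM scaling, with the SD over libraries, and in the order of library numbers 1 to 4, which are names and no ranking. Of the markers that check the labels, the lymphocyte receptor gene Cd3e was at 0.178 to 1.14 CPM. The full lists of lymphocyte markers held more. The 6 T lymphocyte markers summed to 16.7 to 37.3 CPM in gut and 18.6 to 22.0 CPM in inguinal libraries. The 6 B lymphocyte markers summed to 223 to 278 and 303 to 345 CPM. Ccl21a, made by lymph node stroma, was at 823 CPM or more in each library. Duodenal libraries 1 and 2 stood apart by 6 pancreatic acinar genes, which summed to 22035 and 12466 CPM there against 5.15 to 63.7 CPM in the other 18 libraries. Counts that rest on the duodenal libraries are given with and without these below. In whole nodes, fewer cells of a type and less RNA per cell cannot be told apart.

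Most of the 36 genes were higher in gut-draining than in inguinal nodes. With edgeR's quasi-likelihood test, 34 of the 36 genes were higher in gut-draining nodes (mean of the 4 positions) at an adjusted p under 0.05 and 0 were lower, where 13.4% of all 29411 genes tested were called higher and 12.9% lower. All 36 fitted differences were above 0, with a median log2 fold change of 0.73 against 0.002 over all genes, and 35 of 36 had an unadjusted p under 0.05. In 18 genes each of the 16 gut libraries lay above each of the 4 inguinal libraries, which 4.71% of all genes did. Without duodenal libraries 1 and 2 the test called 33. The fold ranged from 1.09 for Ifi27 to 4.02 for Oasl1. The heat map of all members by library shows the inguinal columns lowest and the column of ileal library 2 highest.

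**Figure D1:**
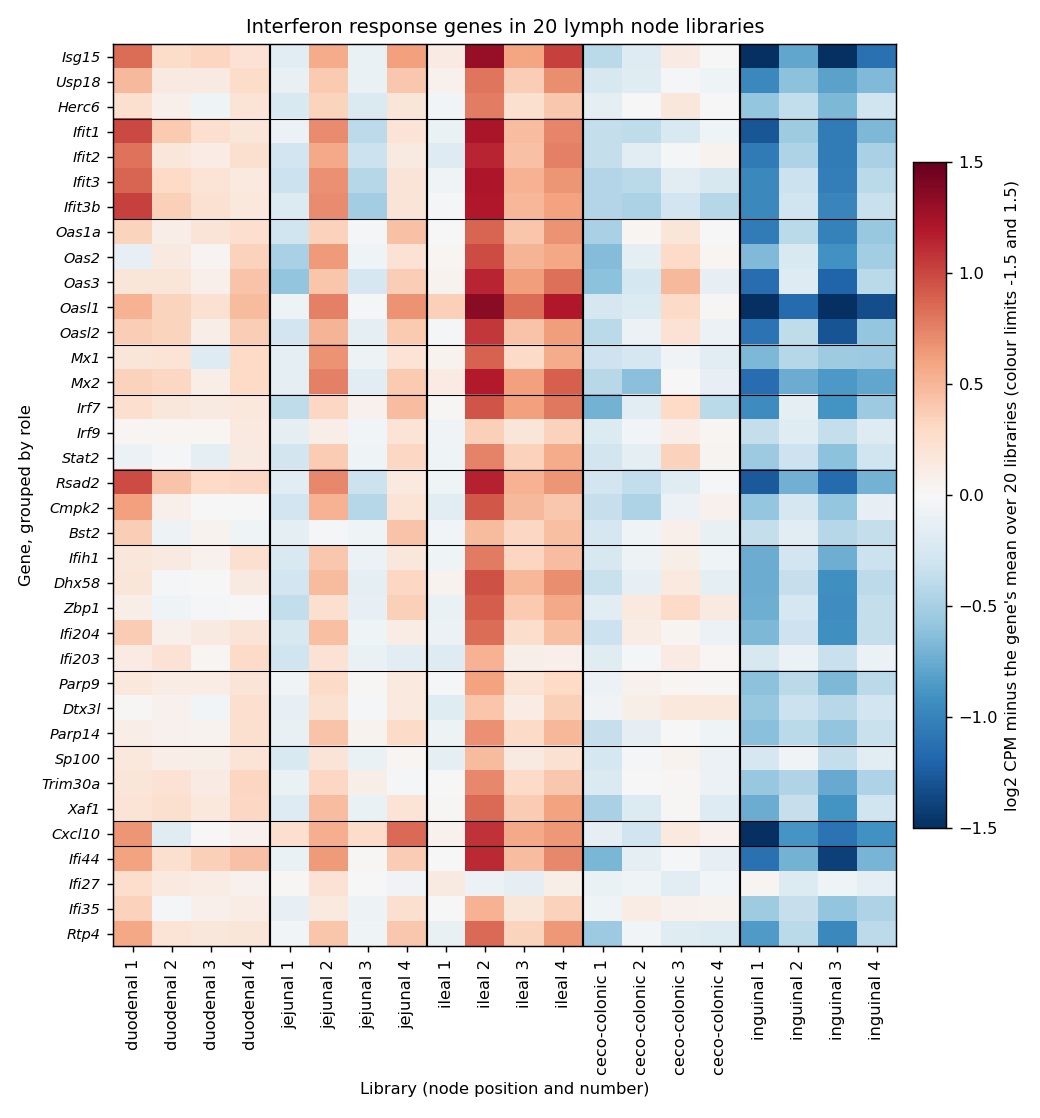
Log2 CPM of each of the 36 genes (rows, grouped by role) in each of the 20 libraries (columns, grouped by position), as the difference from the gene's mean over all libraries, with colours capped at a difference of 1.5 either way. Ileal library 2 held the highest value of 35 genes, and the 4 inguinal libraries held the lowest value of all 36.

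Among genes of ubiquitin-like modification, all 3 rose in gut-draining nodes. Isg15 encodes the ubiquitin-like protein that is attached to other proteins in the response, and Usp18 the enzyme that removes it and also restrains the type I receptor. Isg15 stood at 163, 109.9, 113 and 105 CPM in the duodenal libraries, at 80.6, 133, 84.4 and 139 in the jejunal, at 98.9, 225, 137 and 184 in the ileal, at 68.5, 79.3, 98.6 and 90.5 in the ceco-colonic and at 32.1, 52.9, 27.6 and 41.9 in the inguinal. No inguinal library reached the lowest gut library, and the log2 fold change was 1.59 ± 0.22 (SE; adjusted p = 9.2e-06). Usp18 was at 170.0, 134, 134 and 147 CPM in the duodenal libraries, at 113, 160.0, 114 and 162 in the jejunal, at 127, 212, 157 and 196 in the ileal, at 103, 107, 121 and 116 in the ceco-colonic and at 62.4, 79.7, 69.5 and 77.1 in the inguinal. Its gut and inguinal libraries did not overlap either, with a log2 fold change of 0.96 ± 0.12 (adjusted p = 4.39e-06). Herc6, the ligase that attaches Isg15 in mice, averaged 96.7 ± 18.6 CPM in gut-draining (SD, n = 16) and 62.9 ± 7.61 in inguinal nodes (n = 4).

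The 4 IFIT genes, whose proteins bind foreign RNA and block its translation, all rose in gut-draining nodes, with a median log2 fold change of 0.91. Ifit1 had the largest change of the 4, at 1.12 ± 0.22 (SE; adjusted p = 4.76e-04), from 33.8 ± 7.93 CPM in inguinal (SD, n = 4) to 75.7 ± 28.4 in gut-draining nodes (n = 16). Ifit2 was at 137 ± 46.1 against 68.8 ± 15.9 CPM and Ifit3 at 169 ± 64.3 against 90.4 ± 23.1 CPM. Ifit3b stood at 64.6, 40.6, 37.1 and 35.3 CPM in the duodenal libraries, at 27.5, 51.9, 22.2 and 36.2 in the jejunal, at 31.4, 72.8, 44.6 and 48.0 in the ileal, at 23.3, 22.9, 25.9 and 23.6 in the ceco-colonic and at 16.2, 25.7, 15.9 and 25.2 in the inguinal. Its ceco-colonic libraries lay within the inguinal range or just above it, while the duodenal libraries all lay above both. Ifit2, Ifit3, Ifit3b and Ifit1 lie within 100000 bases of one another on chromosome 19.

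The 5 OAS genes rose together as well. The OAS enzymes make short adenylate chains that activate RNase L, and Oasl1 is a relative known to restrain production of Irf7. Oasl1 had the largest change of the 36 genes. It stood at 93.8, 82.7, 76.4 and 90.9 CPM in the duodenal libraries, at 62.2, 111, 64.6 and 105 in the jejunal, at 84.1, 167, 117 and 149.9 in the ileal, at 55.0, 57.0, 80.0 and 66.3 in the ceco-colonic and at 15.2, 29.3, 17.6 and 26.0 in the inguinal. The lowest gut library was above the highest inguinal one, and the log2 fold change was 2.01 ± 0.21 (SE; adjusted p = 2.81e-07). Oas3 was at 77.6, 77.9, 72.0 and 91.8 CPM in the duodenal libraries, at 45.6, 91.6, 57.6 and 88.2 in the jejunal, at 71.0, 151, 106 and 122 in the ileal, at 44.8, 56.9, 96.1 and 62.9 in the ceco-colonic and at 30.9, 59.8, 29.9 and 51.7 in the inguinal. Its inguinal libraries overlapped the jejunal and ceco-colonic ones, and the change was smaller, at 0.90 ± 0.23 (adjusted p = 5.28e-03). Oasl2, Oas1a and Oas2 had log2 fold changes of 1.03, 0.94 and 0.74.

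Mx1 and Mx2 encode dynamin-like GTPases that trap viral components. Mx1 averaged 239 ± 62.3 CPM in gut-draining (SD, n = 16) and 145 ± 10.2 in inguinal nodes (n = 4), with no overlap between them. Mx2 stood at 25.9, 25.4, 21.9 and 25.1 CPM in the duodenal libraries, at 18.4, 34.4, 18.2 and 26.8 in the jejunal, at 22.3, 46.7, 31.3 and 38.2 in the ileal, at 15.3, 13.2, 20.5 and 18.7 in the ceco-colonic and at 9.27, 12.2, 11.2 and 11.9 in the inguinal. Each inguinal library was below each gut library (log2 fold change 1.13 ± 0.18, SE; adjusted p = 4.91e-05).

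All 3 transcription factors rose, with a median log2 fold change of 0.57. Irf7, which amplifies interferon production, was the second most abundant member per length, at 482 TPM (a level scaled by transcript length, mean of 20 libraries). It stood at 667, 630.1, 612 and 622 CPM in the duodenal libraries, at 429, 692, 582 and 768 in the jejunal, at 565, 1077, 853 and 968 in the ileal, at 341, 497, 687 and 423 in the ceco-colonic and at 290.4, 506, 299.6 and 384 in the inguinal. Inguinal library 2 lay above jejunal library 1 and above 3 of the ceco-colonic libraries, and the log2 fold change was 0.78 ± 0.18 (SE; adjusted p = 2.81e-03). Irf9, the DNA-binding subunit of ISGF3, was at 123, 123, 122 and 133 CPM in the duodenal libraries, at 109, 129, 117 and 138 in the jejunal, at 116, 153, 136 and 152 in the ileal, at 104, 117, 129 and 122 in the ceco-colonic and at 93.3, 106, 93.9 and 105 in the inguinal. Its groups overlapped at a single gut library, ceco-colonic 1, and the change was 0.34 ± 0.07 (adjusted p = 1.04e-03). Stat2, its partner, was at 249 ± 55.2 CPM in gut-draining (SD, n = 16) and 167 ± 18.4 in inguinal nodes (n = 4), with no overlap.

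Rsad2 (viperin) makes a nucleotide that ends viral RNA chains, and Cmpk2, its neighbour on chromosome 12, phosphorylates nucleotides. Rsad2 stood at 131, 89.3, 81.7 and 82.4 CPM in the duodenal libraries, at 59.6, 109, 53.0 and 73.8 in the jejunal, at 63.5, 148, 95.3 and 105 in the ileal, at 54.6, 51.5, 58.8 and 65.7 in the ceco-colonic and at 27.8, 40.3, 29.9 and 40.6 in the inguinal. The gut libraries all lay above the inguinal ones (log2 fold change 1.22 ± 0.20, SE; adjusted p = 8.88e-05). Cmpk2 was at 70.0, 48.2, 45.9 and 45.9 CPM in the duodenal libraries, at 37.6, 66.0, 34.0 and 52.9 in the jejunal, at 41.1, 87.4, 64.4 and 60.7 in the ileal, at 35.97, 33.2, 43.2 and 47.9 in the ceco-colonic and at 30.6, 38.5, 30.7 and 42.3 in the inguinal. Its inguinal libraries overlapped all gut positions except the duodenal. Its log2 fold change was 0.50 ± 0.18 with an adjusted p of 0.0446, and it lost its call in 14 of 27 alternative settings (adjusted p from 0.0179 to 0.156).

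Bst2 (tetherin), which holds budding particles on the cell and is also a surface marker of plasmacytoid dendritic cells, was the most abundant member per length at 576 TPM. It stood at 309.9, 227, 249 and 229 CPM in the duodenal libraries, at 216, 237, 229 and 321 in the jejunal, at 232, 332, 297 and 329 in the ileal, at 201, 229.6, 252 and 222 in the ceco-colonic and at 187, 213, 179 and 187 in the inguinal. Ceco-colonic library 1 alone of the gut libraries fell below the highest inguinal library. The log2 fold change was 0.42 ± 0.10 (SE; adjusted p = 4.75e-03). Isg15 followed Irf7 at 272 TPM, and the lowest members per length were Oas3, Mx2 and Cmpk2 at 24.6, 22.7 and 22.5 TPM.

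Of the 5 genes that sense nucleic acids, 4 rose. Ifih1 (MDA5) and Dhx58 (LGP2) bind double-stranded RNA and Zbp1 binds left-handed double helices; their log2 fold changes were 0.65, 0.75 and 0.71. Ifi204, of a DNA-binding family whose genes resemble one another closely, changed by 0.70. Ifi203, of the same family, was not called (log2 fold change 0.24 ± 0.10, SE; adjusted p = 0.0818). It stood at 279, 298, 263 and 314 CPM in the duodenal libraries, at 209, 299, 239 and 229 in the jejunal, at 224, 369, 273 and 271 in the ileal, at 226, 252, 280.3 and 263 in the ceco-colonic and at 218, 241, 204 and 241 in the inguinal. All duodenal libraries lay above the inguinal ones, while the jejunal, ileal and ceco-colonic groups overlapped them.

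Parp9, Dtx3l and Parp14, neighbours on chromosome 16, rose with log2 fold changes of 0.66, 0.50 and 0.62; the first 2 encode an ADP-ribosylating enzyme and its ubiquitin ligase partner. Parp9 (137 ± 17.4 against 86.8 ± 8.5 CPM, SD, n = 16 and 4) and Dtx3l (153 ± 17.9 against 108 ± 9.12 CPM) did not overlap between gut-draining and inguinal libraries. Trim30a, a ubiquitin ligase of the TRIM family, and Xaf1, which promotes cell death, had log2 fold changes of 0.70 and 0.71. Sp100, a scaffold of nuclear bodies, stood at 264, 253, 251 and 272 CPM in the duodenal libraries, at 202, 269, 220.3 and 240.4 in the jejunal, at 215, 328, 259 and 277 in the ileal, at 196, 232, 246 and 221 in the ceco-colonic and at 199, 228, 185 and 211 in the inguinal. The duodenal group alone lay wholly above the inguinal range, and the log2 fold change was 0.26 ± 0.09 (SE; adjusted p = 0.0325), lost in 3 of 27 alternative settings.

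Cxcl10, a chemokine that draws cells bearing Cxcr3, was called with the third largest change. It stood at 152, 84.8, 96.3 and 100.4 CPM in the duodenal libraries, at 115, 140.3, 116 and 173 in the jejunal, at 101, 204, 142 and 151 in the ileal, at 87.2, 78.0, 107 and 100.3 in the ceco-colonic and at 30.1, 52.3, 44.6 and 51.1 in the inguinal. All gut libraries were above all inguinal ones (log2 fold change 1.43 ± 0.19, SE; adjusted p = 5.24e-06).

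The remaining 4 members have mixed or less settled roles. Ifi44 stood at 75.2, 58.3, 63.0 and 66.9 CPM in the duodenal libraries, at 46.2, 77.1, 50.2 and 64.3 in the jejunal, at 49.6, 107, 68.3 and 81.2 in the ileal, at 30.7, 45.0, 48.7 and 45.3 in the ceco-colonic and at 22.7, 30.1, 18.7 and 30.4 in the inguinal. Its lowest gut library lay just above its highest inguinal one (log2 fold change 1.23 ± 0.18, SE; adjusted p = 2.41e-05). Ifi35 (0.60) and Rtp4 (0.82) were called as well. Ifi27, which encodes a small mitochondrial protein, departed from the rest. It stood at 77.6, 71.7, 70.4 and 67.6 CPM in the duodenal libraries, at 65.6, 75.5, 65.2 and 62.3 in the jejunal, at 71.1, 60.8, 59.1 and 68.9 in the ileal, at 60.6, 62.0, 57.7 and 63.1 in the ceco-colonic and at 66.9, 56.3, 61.8 and 58.4 in the inguinal. The duodenal group alone lay wholly above the inguinal range, and the difference was not called (0.12 ± 0.06; adjusted p = 0.148).

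**Figure D2:**
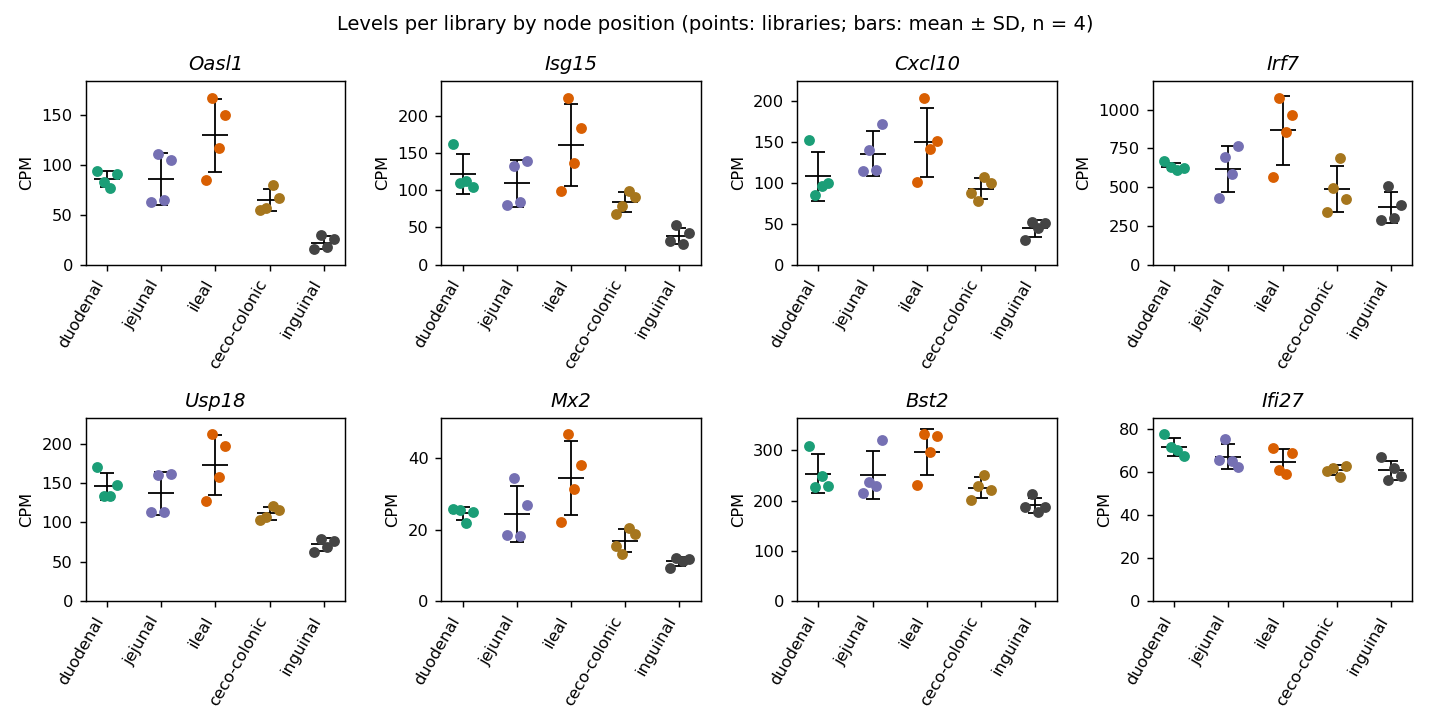
CPM per library (points) with mean ± SD (bars, n = 4) at each node position for 8 of the genes, each axis starting at 0. Oasl1, Isg15, Cxcl10, Usp18 and Mx2 show inguinal points below all gut points, Irf7 and Bst2 show overlap, and Ifi27 lies between 56.3 and 77.6 CPM throughout.

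**Figure D3:**
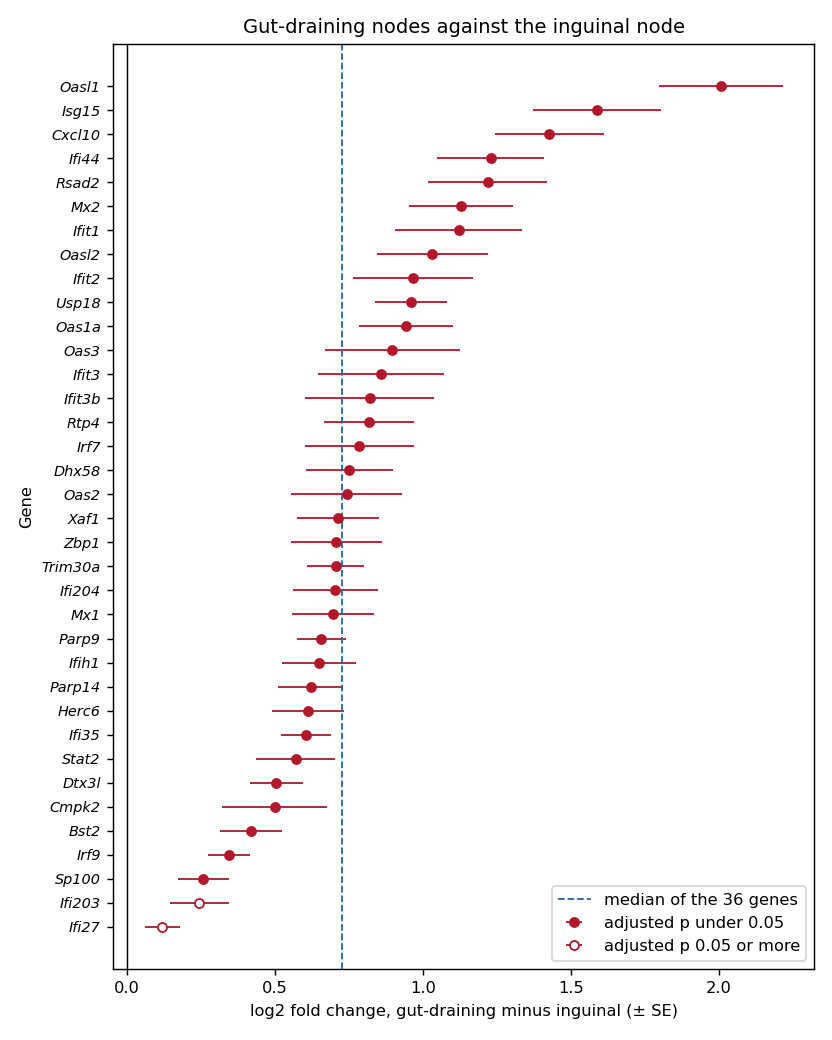
Log2 fold change of each of the 36 genes, gut-draining minus inguinal nodes, with its standard error; filled points have an adjusted p under 0.05 and the dashed line is the median of 0.73. The points run from 0.12 (Ifi27) to 2.01 (Oasl1), and the open points are Ifi27 and Ifi203.

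Set against the inguinal node 1 position at a time, the ileal node had the largest median log2 fold change and the ceco-colonic the smallest. These 4 comparisons share the inguinal libraries. Ileal nodes had 34 of 36 genes higher (12.5% of all genes were called higher), with a median log2 fold change of 1.08, and 32 genes without overlap between the libraries (15.5% of all genes). Duodenal nodes had 34 higher (13.2%) at a median of 0.76, and in all 36 genes the 4 duodenal libraries lay above the 4 inguinal ones (13.1%). Without duodenal libraries 1 and 2 the test called 23. Jejunal nodes had 30 higher (11.4%) at a median of 0.70 and 26 without overlap (12.6%). Ceco-colonic nodes had 16 higher (10.6%) at a median of 0.48 and 19 without overlap (13.1%). The 16 calls in ceco-colonic nodes fell to 9 without inguinal library 1 and to 8 without inguinal library 3, and were 25 when only the ceco-colonic and inguinal libraries were fitted.

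The 16 genes called in the ceco-colonic node included Oasl1 (log2 fold change 1.55 ± 0.23, SE; adjusted p = 4.82e-05), Isg15 (1.12 ± 0.25; 2.06e-03) and Cxcl10 (1.06 ± 0.21; 9.65e-04). Of the 4 IFIT genes none was called there, where 10.6% of all genes were called higher. Ifit1 was at 0.60 ± 0.25 (adjusted p = 0.105), Ifit2 at 0.62 ± 0.24 (0.0802), Ifit3 at 0.34 ± 0.25 (0.418) and Ifit3b at 0.21 ± 0.26 (0.668). In Ifit1 (46.9 to 58.3 against 25.1 to 42.4 CPM) and Ifit2 (89.0 to 119 against 54.7 to 83.1 CPM) each ceco-colonic library still lay above each inguinal one. Libraries of Ifit3 and Ifit3b overlapped. The same 4 genes in ileal against inguinal nodes had log2 fold changes of 1.51, 1.35, 1.30 and 1.25, each called.

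Among the 4 gut positions the members differed in 14 of 36 genes by edgeR's F-test, where 21.3% of all genes were called, and 25 of 36 had an unadjusted p under 0.05. The 14 were Mx1, Mx2, Dhx58, Rsad2, Ifi44, Usp18, Trim30a, Rtp4, Ifit1, Ifit3, Ifit3b, Isg15, Xaf1 and Oasl1, with Mx2 the firmest (adjusted p = 7.94e-03). This count rested on single libraries: it was 2 without ileal library 2, ileal library 4, ceco-colonic library 1 or ceco-colonic library 2, 3 without ceco-colonic library 4, 7 without ileal library 3, 6 without duodenal library 2 and 27 without ileal library 1. Without duodenal libraries 1 and 2 together it was 6.

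Small intestinal nodes (mean of duodenal, jejunal and ileal) were higher than ceco-colonic nodes in 14 genes and lower in 0, where 8.9% of all genes were called higher and 7.74% lower. The median log2 fold change was 0.38 against 0.01 over all genes, 24 genes had an unadjusted p under 0.05, and 0 were free of overlap (2.97% of all genes). Ifit3b changed most (0.82 ± 0.22, SE; adjusted p = 0.0141), followed by Mx2 (0.70 ± 0.17; 7.75e-03) and Ifit3 (0.70 ± 0.22; 0.0301). The 14 calls fell to 2 without ceco-colonic library 1, to 3 without ceco-colonic library 2, to 6 without ceco-colonic library 4 and to 8 without duodenal libraries 1 and 2.

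Between pairs of gut positions, ileal and ceco-colonic nodes differed in the most members. In 19 genes the ileal node was higher (7.43% of all genes were called higher), at a median log2 fold change of 0.65, and 8 of the 36 had no overlap (9.98%). Ifit3b (1.04 ± 0.26, SE; adjusted p = 0.011), Mx2 (1.03 ± 0.21; 1.79e-03) and Oasl1 (1.003 ± 0.230; 5.46e-03) had the largest changes. The 19 calls became 6 without ileal library 2, 11 without ileal library 4, 8 without ceco-colonic library 1 and 31 without ileal library 1. Duodenal nodes exceeded ceco-colonic nodes in 5 genes, Rsad2, Ifi44, Ifit1, Ifit3b and Ifi27 (8.24% of all genes), and in 16 without overlap (8.25%). The 5 calls became 0 without duodenal library 1 or ceco-colonic library 1, 1 without duodenal library 2 or ceco-colonic library 2, 2 without ceco-colonic library 3 or 4, 8 without ileal library 2, 10 without ileal library 1 and 0 without duodenal libraries 1 and 2.

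The other 4 pairs gave 0 calls by edgeR. Duodenal against jejunal nodes had 0 genes with an unadjusted p under 0.05 and 0 calls by DESeq2 or limma-voom (2.83% of all genes were called by edgeR). Duodenal against ileal nodes had 6 at an unadjusted p under 0.05, 4 by DESeq2 and 0 by limma-voom (14.6%), and by edgeR 5 without ileal library 1 and 1 without duodenal library 1 or jejunal library 2. Jejunal against ileal nodes had 15 at an unadjusted p under 0.05 and 0 by DESeq2 or limma-voom (0.068%). Jejunal against ceco-colonic nodes had 6 at an unadjusted p under 0.05 and 0 by DESeq2 or limma-voom (12.2%). The percentages are shares of all genes at an adjusted p under 0.05 by edgeR, so they cannot be set beside the counts at an unadjusted p. A missed threshold does not show that these nodes were alike.

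The members kept close to 1 order of positions. The ileal mean was highest in 34 of 36 genes, and the inguinal mean lowest in 35. The ceco-colonic mean was the lowest of the gut in 32. In 31 genes the order was ileal, then duodenal or jejunal, then ceco-colonic, then inguinal. No share over all genes is given beside these counts. The members vary together between libraries, so the genes are not separate observations. The ileal mean includes library 2, which held the highest value of all libraries in 35 genes. The exceptions at the top were Ifi27 and Ifi203, which were highest in the duodenal node. Among neighbours in this order, the ileal node differed from neither the duodenal nor the jejunal in a gene that passed the test, and the duodenal node differed from the ceco-colonic in the 5 named above.

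Libraries of a position differed along the same line as the positions themselves, as the plot of the members' median per library shows. Ileal library 2 held the highest value of all 20 libraries in 35 genes, and ileal library 1 the lowest ileal value in 35. Inguinal libraries 2 and 4 both lay above libraries 1 and 3 in 33 genes. In the jejunal node library 2 was highest in 27 genes and library 1 lowest in 27, and in the ceco-colonic node library 3 was highest in 26 and library 1 lowest in 29. The median over the 36 genes of the log2 difference from a gene's own mean ran from -0.90 in inguinal library 3 to 0.88 in ileal library 2. Its mean over libraries was 0.46 ± 0.38 in ileal, 0.19 ± 0.09 in duodenal, 0.09 ± 0.28 in jejunal, -0.11 ± 0.16 in ceco-colonic and -0.60 ± 0.27 in inguinal nodes (SD, n = 4 each). By single libraries on the CPM scale the duodenal range (0.10 to 0.30) lay above the ceco-colonic (-0.32 to 0.06), and each other pair of gut positions overlapped. On the TPM scale, without TMM scaling, the value of duodenal library 1 was lower by 0.30, as given below. The separation is therefore stated for CPM only. The median deviation of ileal library 1 was -0.02 in CPM, below all 4 duodenal libraries.

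Within a position the SD of log2 CPM had a median of 0.29 over the members, from 0.10 to 0.43, against 0.11 over the 7802 genes at least as abundant as the least abundant member (22.4 CPM). Of the 36, 35 lay above that median. By position the members' median SD was 0.38 in ileal nodes against 0.08 for those genes, 0.32 against 0.11 in jejunal, 0.28 against 0.06 in inguinal, 0.17 against 0.09 in ceco-colonic and 0.13 against 0.12 in duodenal nodes. The duodenal libraries were the most alike in these genes although libraries 1 and 2 differed from 3 and 4 in acinar RNA.

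**Figure D4:**
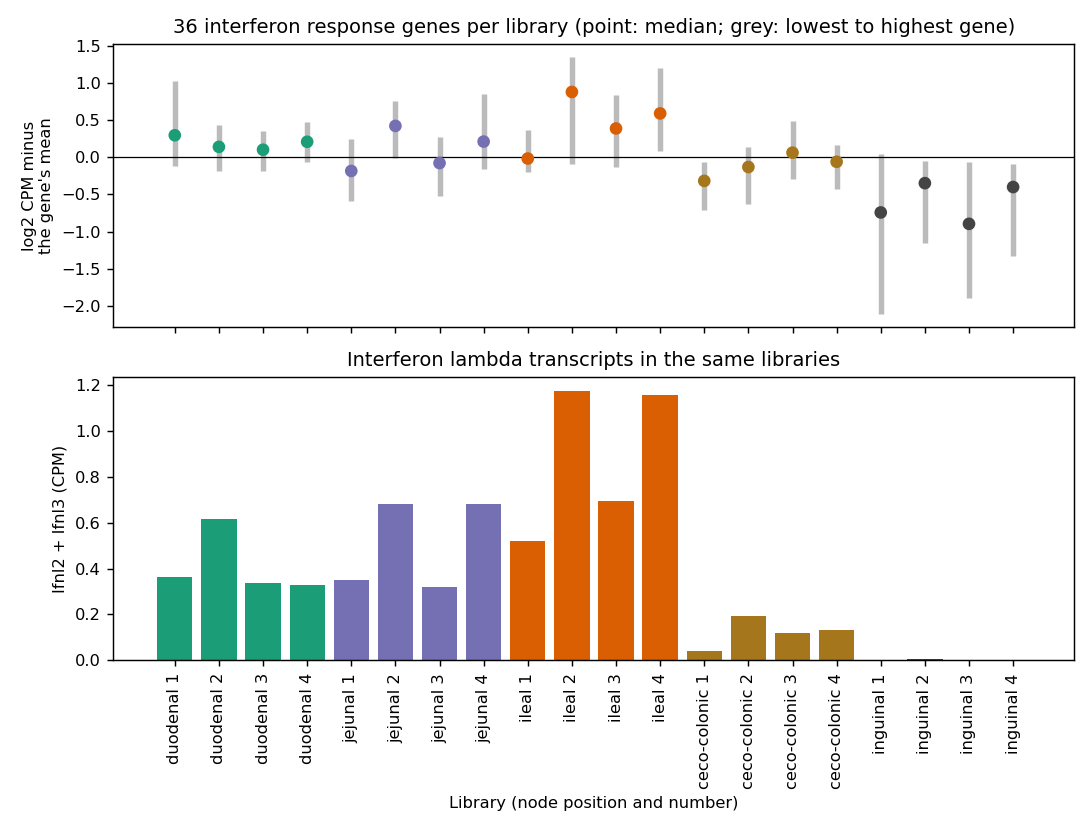
Above, the median over the 36 genes of log2 CPM minus the gene's own mean, per library, with grey lines from the lowest to the highest gene; below, the summed CPM of Ifnl2 and Ifnl3 in the same libraries (bars from 0, single libraries with no error). Ileal libraries 2 and 4 are the highest in both panels, and the inguinal libraries the lowest.

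Transcripts of the interferons themselves were rare, and those of interferon lambda were the most unequal between nodes. Ifnl2 and Ifnl3, whose reads are hard to tell apart, together had 63, 128, 79 and 65 estimated counts in the duodenal libraries, 105, 138, 72 and 113 in the jejunal, 112, 228, 135 and 205 in the ileal, 8, 33, 33 and 34 in the ceco-colonic and 0, 2, 0 and 0 in the inguinal. Every gut library lay above every inguinal one, and each ceco-colonic library lay below each library of the small intestinal nodes. Summed levels were 0.887 ± 0.330 CPM in ileal, 0.508 ± 0.201 in jejunal, 0.411 ± 0.137 in duodenal and 0.122 ± 0.0618 in ceco-colonic nodes (SD, n = 4 each). By edgeR's test the adjusted p for gut-draining against inguinal nodes was 2.68e-07 for Ifnl2 and 2.28e-06 for Ifnl3, and among gut positions 8.37e-04 and 7.34e-04. No fold is given, since the inguinal libraries hold 2 counts in all; with 0 counts a library allows up to 3 counts.

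Ifnb1, the interferon beta gene, had 32, 14, 12 and 7 estimated counts in the duodenal libraries, 30, 8, 22 and 4 in the jejunal, 14, 19, 15 and 20 in the ileal, 2, 3, 9 and 10 in the ceco-colonic and 1, 2, 2 and 1 in the inguinal. It was called higher in gut-draining nodes (log2 fold change 2.97 ± 0.59, SE; adjusted p = 6.15e-04) from few counts. Ifnz, the other type I interferon gene tested, was not called, at 0.189 ± 0.0711 (SD, n = 16) against 0.174 ± 0.101 CPM (n = 4; adjusted p = 0.900 by edgeR). All 18 type I interferon genes together summed to 0.213 to 0.656 CPM in gut and 0.207 to 0.406 CPM in inguinal libraries, which overlapped. The 14 interferon alpha genes summed to 6 to 57 counts in a gut library and to 2 to 19 in an inguinal one and did not enter the test, and Ifne was at 0 in all libraries. Ifng, the type II interferon, was lower in gut-draining nodes, at 2.52 ± 0.779 (SD, n = 16) against 3.56 ± 0.323 CPM (n = 4; log2 fold change -0.52, adjusted p = 0.0231 by edgeR).

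Of 6 receptor genes 1 was called, as higher, where 13.4% of all genes tested were higher and 12.9% lower. Ifnar1 averaged 128 ± 7.5 CPM in gut-draining (SD, n = 16) and 129.8 ± 2.34 in inguinal nodes (n = 4), and Ifnar2 130.1 ± 7.24 and 130.2 ± 6.66. Their log2 fold changes were -0.02 ± 0.04 and -0.00 ± 0.05 (SE). Ifnlr1, the receptor subunit for interferon lambda, was higher (3.09 ± 0.599 against 2.41 ± 0.126 CPM; adjusted p = 0.013 by edgeR) and, unlike the members, lower in ileal than in ceco-colonic nodes (log2 fold change -0.60, adjusted p = 1.84e-03).

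Of 9 genes of signalling just below the receptors, 7 were higher in gut-draining nodes and 0 lower. Among all genes tested, 13.4% were higher and 12.9% lower, the shares to set beside each count of this paragraph. Jak2, a kinase of the type II receptor, was at 487 ± 44.5 against 249.9 ± 2.15 CPM (SD, n = 16 and 4; log2 fold change 0.96, adjusted p = 1.17e-09 by edgeR). Of 7 other interferon regulatory factors, 4 were higher and 1 lower. Irf1 (log2 fold change 0.42) and Irf5 (0.55) rose, and Irf4, which acts in dendritic and plasma cells, fell by 0.65 on the log2 scale. Of 17 further sensors and adaptors, 8 were higher and 2 lower, among them Samhd1 (0.18) and Adar (0.43) higher and Ticam1 (-0.33), the adaptor of Tlr3, and Tlr8 (-0.37) lower.

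Outside the 36, a list of 57 other genes known to be induced by type I interferon had 54 in the table, all tested. In gut-draining nodes 38 were higher and 1 lower (13.4% and 12.9% of all genes), at a median log2 fold change of 0.37. The most abundant higher genes were Ly6e (0.16), which blocks viral entry, and Lgals3bp (0.56), and the lower one was Ddx60 (-0.44; 38.7 ± 7.97 against 52.0 ± 6.53 CPM, SD, n = 16 and 4). The list differed among gut positions in 15 of 54 genes, where 21.3% of all genes did. Of 17 genes induced mainly by interferon gamma, 12 were higher and 0 lower, at a median of 0.37. Gbp2, a guanylate-binding protein that attacks vacuoles, was at 257 ± 34.7 against 167 ± 13.7 CPM, and Ciita, the master factor of MHC class II, at 249 ± 31.9 against 208 ± 12.5 CPM. Ido1, which breaks down tryptophan, was singled out after its values were seen, at 6.79 ± 1.06 against 0.765 ± 0.111 CPM (log2 fold change 3.13, adjusted p = 4.51e-15 by edgeR).

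Markers of cells that can make or answer interferon moved in both directions between the same nodes. Among all genes tested, 13.4% were higher in gut-draining nodes and 12.9% lower, the shares to set beside each marker count. Of 10 plasmacytoid dendritic cell markers, 2 were higher in gut-draining nodes and 5 lower. Spib rose (log2 fold change 0.59), while Tcf4 (-0.47) and Siglech (-0.44; 104 ± 13.5 against 141 ± 11.5 CPM, SD, n = 16 and 4) fell. The 10 summed to 480 to 984 CPM in gut and 563 to 621 CPM in inguinal libraries. The highest gut sums were 984 and 812 CPM, in duodenal libraries 1 and 2, which stood apart by acinar genes. Duodenal libraries 3 and 4 held 549 and 552 CPM. The duodenal node held most of Klk1, a kallikrein also made in the pancreas, at a mean of 195 CPM. Of 5 markers of natural killer cells, a source of Ifng, 5 were lower, summing to 203 to 351 CPM against 337 to 448 CPM. Of 6 monocyte markers 2 were higher and 3 lower (353 to 638 against 529 to 695 CPM), of 7 conventional dendritic cell markers 2 and 2 (1455 to 1992 against 1448 to 1513 CPM), and of 5 neutrophil markers 0 and 1 (24.6 to 63.5 against 32.1 to 57.6 CPM).

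Of 8 macrophage markers, 3 were higher and 2 lower, where 13.4% of all genes tested were higher and 12.9% lower. These 8 summed to 1927 to 3911 CPM in gut and 2427 to 2743 CPM in inguinal libraries. Marco was higher (log2 fold change 0.45) and Timd4 lower (-3.30), and Vsig4 was at or near 0 throughout (at most 0.0715 CPM). Ileal libraries reached 3082 to 3911 CPM and jejunal libraries 3297 to 3649 CPM, both above the ceco-colonic range of 2030 to 2338 CPM, while the duodenal range of 1927 to 2680 CPM overlapped it. Of 5 adipocyte markers 0 were called in either direction, and they summed to 385 to 1299 CPM in jejunal, 451 to 784 in ileal, 56.0 to 386 in inguinal, 52.9 to 287 in duodenal and 47.9 to 208 in ceco-colonic libraries. Of 8 stromal markers 5 were higher and 2 lower (2023 to 4961 against 1577 to 2383 CPM). Of 6 markers each, T lymphocytes had 1 higher and 1 lower (16.7 to 37.3 against 18.6 to 22.0 CPM). B lymphocytes had 1 and 2 (223 to 278 against 303 to 345 CPM). Intestinal epithelium had 2 and 1 (15.3 to 25.8 against 18.8 to 21.4 CPM) and acinar cells 0 and 0. The part of these cells in the members' levels was not tested.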

How the data were processed

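Per the labels' protocols, RNA of whole nodes was isolated with the PicoPure kit and polyA libraries were made with a NEBNext kit. The tools edgeR, limma and kallisto and the builds GRCm39 and mm10 are listed in the submitters' processing notes, without versions or roles. The authors deposited a gene table of expected counts (estimated counts, 56258 genes, 135 without a symbol) and, per library, transcript tables of estimated counts and TPM for 149419 transcripts. Over 12483 genes with at least 500 counts in every library, TPM summed per gene and scaled by length gave 99.7% of the deposited gene values within 0.01 on the log2 scale, and plain sums gave 28.9%, so the gene table is length-scaled.

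Here the estimates were rounded and fitted with edgeR 4.0.16 (R 4.3.3): filterByExpr by position (minimum count 10, minimum total 15), TMM, 1 mean per position over all 20 libraries and quasi-likelihood tests. P-values were adjusted by Benjamini-Hochberg over the 29411 genes tested, and a gene was called at an adjusted p under 0.05. Log2 CPM used a prior count of 2. TPM compared levels between genes. The procedure was run on simulated counts in which every gene had the same spread and was drawn separately. It was not checked on genes that vary together between libraries, as the members do. Promoter windows and neighbours came from RefSeq (GRCm38.p6); all 36 members matched by symbol for position.

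Every library is given for the 3 highest and 3 lowest members by TPM, the 5 highest and 5 lowest by fold change against the inguinal node, the 4 smallest p among gut positions, and those not called. From other lists the most abundant called genes are named; Ifnar1, Ifnar2, Ifnlr1, Ifne, Klk1 and Cd3e were added for their roles. The members and lists were chosen with earlier results of these data known. Alternatives were DESeq2's size factors in place of TMM, genes unfiltered, the DESeq2 1.42.0 and limma-voom (limma 3.58.1) tests, the replicate number as a block, counts summed from transcripts, leaving out each library, leaving out duodenal libraries 1 and 2, and fitting only the groups compared.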

Additional observations from a re-analysis of the deposited data

Results flagged for a closer look

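Each member was screened at each position for a library far from the other 3 by Dixon's criterion (the gap to the nearest library over the range of the 4). Of 180 such groups 8 were flagged, and all 8 were duodenal. Chance flags about 1 in 20 of separate groups, and these groups are not separate, so the count cannot be set against that rate. The members vary together between libraries, so flags in the same library are not separate observations. Duodenal library 1 was the highest of its 4 for 6 genes: Isg15 (163 CPM against 105 to 113 in the others), Ifit2 (201 against 124 to 135), Ifit3 (259 against 156 to 173), Rsad2 (131 against 81.7 to 89.3), Cmpk2 (70.0 against 45.9 to 48.2) and Rtp4 (88.5 against 66.4 to 68.2). On the TPM scale these gaps were smaller for Isg15 (353 TPM against 279 to 320) and Rtp4 (95.7 against 86.6 to 93.6). The median deviation of the 36 genes in this library was -0.0041 there in place of 0.30. TPM was used without TMM scaling, unlike CPM, and the source of this shift was not tested. It is also the library with the most acinar RNA, at 22035 CPM summed over 6 genes, while duodenal library 2, at 12466 CPM, was not flagged in any member. Oasl2 was flagged for duodenal library 3, the lowest at 143 CPM against 167 to 171, and Irf9 for duodenal library 4, the highest at 133 CPM against 122 to 123.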

How the results depend on the processing

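The count of members higher in gut-draining than inguinal nodes (34) stayed within 1.5 times of itself in each of 27 alternatives, at 32 to 35 when single libraries were left out. With each library left out in turn, counts ran from 2 to 27 among gut positions, 2 to 18 for small intestinal against ceco-colonic, 28 to 36, 20 to 32, 33 to 35 and 8 to 22 for duodenal, jejunal, ileal and ceco-colonic against inguinal, 0 to 0 for duodenal against jejunal, jejunal against ileal and jejunal against ceco-colonic, 0 to 5 for duodenal against ileal, 0 to 10 for duodenal against ceco-colonic and 6 to 31 for ileal against ceco-colonic nodes. Among gut positions limma-voom called 9, the fit without duodenal libraries 1 and 2 called 6 and the fit of only the gut libraries 8. Without duodenal libraries 1 and 2, small intestinal against ceco-colonic gave 8 and duodenal against ceco-colonic 0. With only the groups compared, ceco-colonic against inguinal gave 25, duodenal against ceco-colonic 13 and jejunal against ceco-colonic 1. DESeq2 called 4 for duodenal against ileal. DESeq2's size factors, leaving genes unfiltered and counts summed from transcripts kept each count of a comparison within 1.5 times.

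The replicate number as a block gave 22 among gut positions, 25 for ceco-colonic against inguinal, 4 for duodenal against ileal, 11 for duodenal against ceco-colonic and 1 for jejunal against ceco-colonic nodes. The main test did not pair libraries by number, because the labels do not say what the number stands for. A correlation of deviations above 0.1 was found in 13 of 40 pairs with the same number (median 0.08). It was found in 9 of 120 pairs of different numbers (median -0.02). Of the 20 libraries, 12 matched best a library of their own number. Libraries of the same number were thus somewhat more alike, and whether a number marks an animal was not tested. On the TPM scale, which was used without TMM scaling, duodenal library 1 had a median member deviation of -0.0041 in place of 0.30. The cause of these changes was not tested; fewer libraries also mean less power. No member reversed its direction against the inguinal node in 27 settings; Cmpk2 lost its call in 14 and Sp100 in 3, and Ifi203 gained one in 2 (adjusted p from 0.0276 to 0.261).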
